A study of Homo sapiens with 12 samples.

Results

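The resting transcriptome described here is that of SH-SY5Y cells that received the solvent dimethyl sulfoxide (DMSO) and no compound. It was taken from the 3 control libraries of a series of 12 samples, chosen by their labels and by the matching columns of the deposited count table. The series holds 4 groups of 3 samples, and the other groups, each given HPPE, zinc protoporphyrin or tin protoporphyrin, were not used. SH-SY5Y is a human neuroblastoma line, grown here in DMEM/F12 medium with 10% fetal bovine serum and antibiotics to 80% confluence in wells of 2 mL. Each control well received 10 µL of DMSO, or 0.5% of the volume, and was lysed 5 h later. Every group of the series carries the same solvent, so "at rest" means growing cells in serum and DMSO, and wells without DMSO were not analysed here. The labels number the control samples 1 to 3 but do not say whether they came from separate cultures, so the spread between them may be technical.

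Neuroblastoma arises from sympathoadrenal cells of the neural crest, the lineage that forms sympathetic neurons and the chromaffin cells of the adrenal medulla. A set of transcription factors that includes HAND2 and GATA3 defines this noradrenergic identity. The line is commonly used as a stand-in for dopaminergic or noradrenergic neurons, which make catecholamines from tyrosine in successive steps and store them in vesicles. Neuroblastoma lines can also show a mesenchymal state, marked by factors such as PRRX1 and by matrix genes.

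A gene was called expressed when it had more than 3 counts in each of the 3 libraries, not detected when it had 3 counts or fewer in each, and intermediate otherwise. The table listed 60710 genes, of which 13431 (22.1%) were expressed, 6128 (10.1%) were intermediate and 41151 (67.8%) were not detected. Among 19897 protein-coding genes, 11909 (59.9%) were expressed, 1880 (9.45%) were intermediate and 6108 (30.7%) were not detected. These protein-coding shares are the background for the counts of gene lists below. Levels are given as CPM (counts per 1000000) for a gene across libraries, always in the order of control libraries 1, 2 and 3, and ± marks the SD over these libraries (n = 3). Different genes were ranked by a per-length level, the counts per kb of the longest annotated transcript scaled to a sum of 1000000 per library. An order by this level is firm only where median transcript lengths gave it too. CPM values of different genes set side by side, or called low, take no account of length. An expressed protein-coding gene had a median of 38.0 CPM, a median per-length level of 31.7 and a median coefficient of variation of 11.98% between libraries.

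The libraries held 7865547, 7621982 and 1514595 counts, so a floor of 3 counts equals 0.399, 0.396 and 1.88 CPM. A gene with 0 counts in a library could therefore have had a level up to that library's floor, and these limits cover counting error only. Control library 3 was the shallowest, and its dependence on gene length ran opposite to that of libraries 1 and 2. Over 10334 genes with at least 10 CPM, the deviation of a gene from its mean over the libraries had Spearman correlations with transcript length of 0.57, 0.34 and -0.57. When these genes were split into 5 equal bins by length, in the bin with the longest transcripts library 3 lay 0.20 below the mean in median log2 CPM, and in the bin with the shortest it lay 0.18 above it. In the median, long transcripts were thus lower and short ones higher in library 3 than in libraries 1 and 2, and the cause was not tested. Each deviation is taken from the mean of the same 3 libraries, so it cannot show which library carries the trend. Genes of mitochondrial DNA took 8.27%, 7.26% and 5.89% of counts, and 77 genes of cytosolic ribosomal proteins took 2.95%, 3.08% and 4.16%. Across 13431 expressed genes the Spearman correlation between libraries was 0.995 for 1 and 2, 0.976 for 1 and 3, and 0.982 for 2 and 3.

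**Figure D1:**
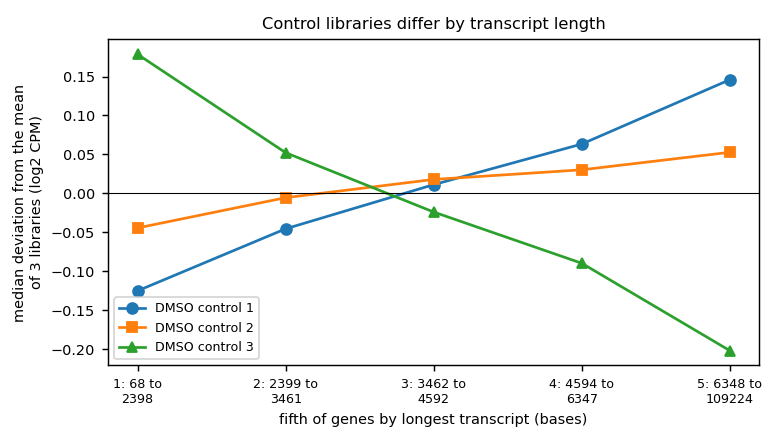
Median deviation of a gene's log2 CPM from its mean over the 3 control libraries (y axis), in 5 equal bins of genes ordered by longest transcript in bases (x axis), with 1 line per library. Control library 3 falls from 0.18 to -0.20 with length, and control library 1 goes from -0.13 to 0.15.

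The lineage of the cells, but not the identity of the line, was checked with 3 noradrenergic marker genes, and each was expressed in every library. TH and INSM1, listed with this lineage below, were not detected. DBH, which converts dopamine to noradrenaline, had 353, 348 and 328 CPM. GATA3, a zinc finger factor of sympathetic neurons, had 708, 664 and 624 CPM. HAND2, a basic helix-loop-helix factor of the same lineage, had 773, 817 and 898 CPM, with library 3 the highest. Their means were 343 ± 13.6 CPM, 665 ± 42.3 CPM and 829 ± 63.2 CPM (SD, n = 3), so the libraries differed little beside the distance of each gene from the floor. DBH lies at chr9:133635348-133659344 on the plus strand of GRCh38, GATA3 at chr10:8045378-8075203 on the plus strand and HAND2 at chr4:173524969-173530229 on the minus strand. An antisense gene, HAND2-AS1, covers 24.1% of the annotated HAND2 exon sequence and had 729 ± 37.8 CPM, and whether strand was used in counting is not given in the sources used here. In bulk RNA, a smaller share of cells with a transcript and less of it per cell cannot be told apart.

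The 250 bases before the start of HAND2, GATA2 and PHOX2A are shown because these genes are lineage factors with high levels here. The sequences are from RefSeq (GRCh38.p14), 5′ to 3′ on the gene's strand, at the first start listed, and capitals mark TGACG on either strand, the core of the cAMP response element.
HAND2, chr4:173530230-173530479, minus strand: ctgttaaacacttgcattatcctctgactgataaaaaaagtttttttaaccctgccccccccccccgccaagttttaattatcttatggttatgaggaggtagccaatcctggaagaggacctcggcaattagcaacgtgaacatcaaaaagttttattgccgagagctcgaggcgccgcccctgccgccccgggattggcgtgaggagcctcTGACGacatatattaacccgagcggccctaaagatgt
GATA2, chr3:128493202-128493451, minus strand: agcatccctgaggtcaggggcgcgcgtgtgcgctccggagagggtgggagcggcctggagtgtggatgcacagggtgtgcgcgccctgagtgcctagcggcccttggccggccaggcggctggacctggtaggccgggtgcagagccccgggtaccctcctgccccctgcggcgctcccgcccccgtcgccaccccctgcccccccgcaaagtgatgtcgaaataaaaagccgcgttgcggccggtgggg
PHOX2A, chr11:72244177-72244426, minus strand: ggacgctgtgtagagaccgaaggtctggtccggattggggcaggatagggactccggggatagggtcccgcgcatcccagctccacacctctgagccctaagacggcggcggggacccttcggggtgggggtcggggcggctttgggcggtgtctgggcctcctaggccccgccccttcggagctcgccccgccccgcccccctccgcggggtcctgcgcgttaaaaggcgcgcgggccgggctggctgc
The HAND2 window held 1 match, whose first base lies 37 bases before the start, and GATA2 and PHOX2A held 0. G and C made up 49.6% of the HAND2 window, 72.8% of GATA2 and 73.2% of PHOX2A. The DBH and CHGA windows held 1 and 2 matches, the latter overlapping on opposite strands. They are not shown, since exons of other annotated transcripts of these genes reach into them.

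The same windows were read for 15301 protein-coding genes with an entry, and their make-up differed with the state of the gene. Median G and C content was 65.6% in 9735 expressed genes, 61.6% in 1392 intermediate genes and 52.4% in 4174 genes not detected. TGACG on either strand was present in 25.8% of all windows, 30.6% of those of expressed genes and 16.6% of those of genes not detected. The GC box GGGCGG was present in 69.0% of expressed and 29.97% of undetected genes, whereas the TATA box TATAAA was present in 4.71% and 19.1%. The GATA site AGATAA was found in 4.27% of windows of expressed genes and in 12.7% of those of genes not detected. Both strands were searched for each motif. A match is a description of these letters and not a bound site, and the part of base composition in these shares was not tested.

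Of 20 noradrenergic transcription factors, 19 were expressed and 1 was not detected. The per-length level of HAND2 was 923 ± 94.9, that of GATA2 was 816 ± 36.5 and that of GATA3 was 657 ± 23.8, and this order was the same with median transcript lengths, although HAND2 and GATA2 differed by less than the sum of their SDs. PHOX2A, a homeodomain factor of autonomic neurons, had 194, 254 and 327 CPM, with library 1 the lowest and library 3 the highest. ISL1, a LIM homeodomain factor, stood at 184 ± 6.09 CPM. TFAP2B, an AP-2 factor of the sympathetic lineage, stood at 387 ± 28.9 CPM. HAND1, the paralog of HAND2, was lower per length at 238 ± 42.2.

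The SOX-C factors SOX4 and SOX11, which are typical of immature neurons, had 1145 ± 291 CPM and 951 ± 232 CPM. Both were highest in library 1 and lowest in library 3, in the direction of the length dependence, whose part in these levels was not tested. SIX3, a homeobox gene, had 347 ± 30.03 CPM, and TBX2, a T-box repressor, had 206 ± 21.2 CPM. LMO1, a neuroblastoma susceptibility gene, had 22.5, 26.3 and 33.3 CPM. INSM1, a zinc finger factor of neuroendocrine cells, had 0 counts in each library. The MYC family was unequal: MYC had 66.5, 75.5 and 74.0 CPM, and MYCN, the oncogene amplified in a subset of neuroblastomas, had 8.24, 5.94 and 5.02 CPM. Per length, MYC reached 94.1 ± 8.54 and MYCN 7.56 ± 1.75.

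Catecholamine handling was represented by 16 genes, of which 12 were expressed, 2 were intermediate and 2 were not detected. TH, tyrosine hydroxylase, which catalyses the rate-limiting step of catecholamine synthesis, had 1, 0 and 0 counts. The enzymes after it were present: DDC, which decarboxylates DOPA, had 74.3, 72.1 and 90.4 CPM, and DBH had the levels given above. PNMT, which converts noradrenaline to adrenaline, was intermediate with 12, 11 and 3 counts. No other annotated gene shares exon sequence with TH in GENCODE 29, but the annotation the authors counted against is not given in the sources used here.

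GCH1, the first enzyme in the synthesis of tetrahydrobiopterin, the cofactor of TH, had 51.0, 49.9 and 52.1 CPM. The later enzymes of that route had 15.3 ± 2.27 CPM for PTS and 15.4 ± 2.09 CPM for SPR. Per length, SPR at 32.2 ± 5.06 was below GCH1 at 53.5 ± 2.19, and PTS at 44.2 ± 7.75 did not differ from GCH1 beyond their spread. SLC6A2, the noradrenaline transporter of the plasma membrane, had 294, 292 and 253 CPM. The dopamine transporter SLC6A3 was not detected, with 0, 2 and 0 counts. Of the vesicular monoamine carriers, SLC18A1, the form of chromaffin cells, had 13.3, 19.0 and 15.1 CPM, while SLC18A2, the neuronal form, was intermediate with 17, 11 and 1 counts. SLC18A2 shares over 50% of its exon sequence with other genes, so its count is uncertain. The degrading enzymes MAOA and MAOB had 39.4 ± 4.24 CPM and 36.4 ± 3.80 CPM. CYB561, which supplies electrons for DBH inside granules, had 248, 272 and 296 CPM.

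**Figure D2:**
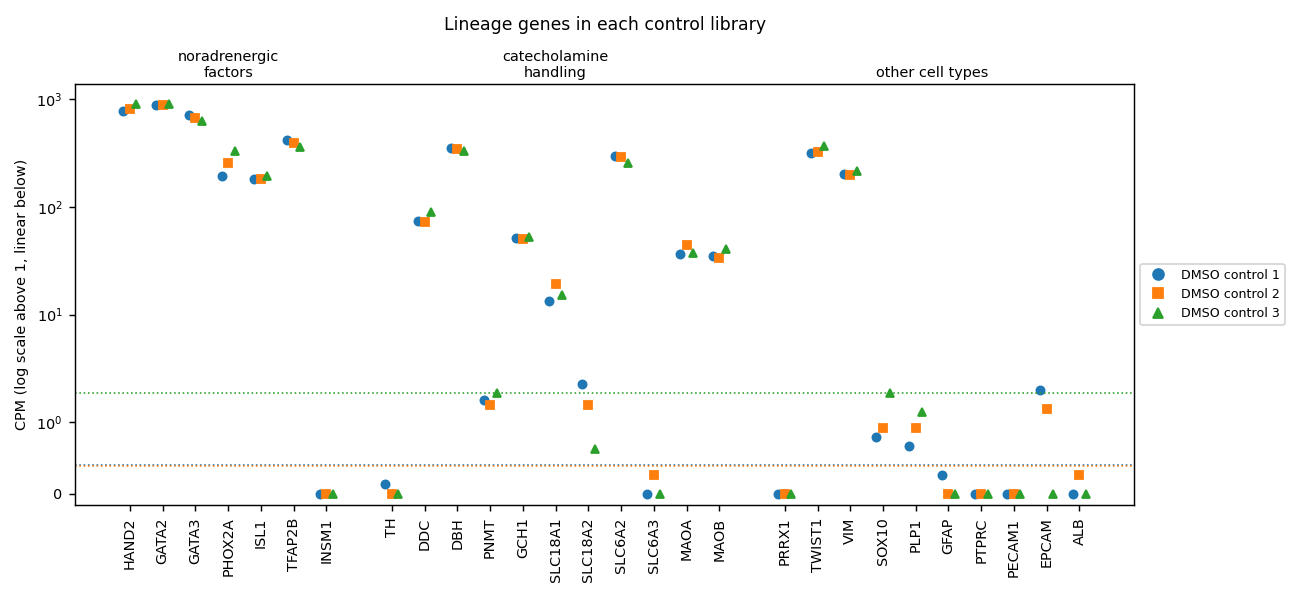
CPM (y axis, log scale above 1 and linear below) of lineage genes (x axis) in control libraries 1, 2 and 3, drawn as separate symbols; dotted lines mark the floor of 3 counts in each library. DBH does not fall below 328 CPM in any library and HAND2 reaches 898 CPM, whereas TH and INSM1 lie at or near 0.

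Dense-core granule proteins were present, whereas many neuropeptides were not. In this list 13 of 25 genes were expressed, 3 were intermediate and 9 were not detected. The share expressed was 52%, next to 59.9% for all protein-coding genes. CHGA, the granule protein chromogranin A, had 422, 434 and 477 CPM, and VGF, a precursor of secreted peptides, had 458, 529 and 593 CPM. Per length, CHGA at 666 ± 60.6 was above CHGB at 116 ± 15.4 and above the secretogranins SCG2 and SCG3 at 94.7 ± 19.6 and 154 ± 4.83. CPE, a carboxypeptidase that trims prohormones, had 61.7 ± 4.83 CPM, and PAM, which amidates peptides, had 96.7 ± 5.70 CPM. The prohormone convertases that cut first were at or near the floor, with 1, 2 and 0 counts for PCSK1 and 6, 6 and 2 counts for PCSK2.

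Among peptide genes, NPY, encoding neuropeptide Y, had 19.3, 22.2 and 38.9 CPM and was highest in library 3. GAL, encoding galanin, had 18.2, 19.3 and 33.3 CPM, and VIP had 8.64, 10.6 and 12.5 CPM. Both GAL and NPY have short transcripts, which tended to be higher in library 3. The genes ADCYAP1, PENK, PDYN, SST, TAC1 and CARTPT had 0 counts in each library. DLK1, a marker of chromaffin progenitors, had 17.5 ± 3.13 CPM.

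Of 24 genes of the mesenchymal neuroblastoma state, 17 were expressed, 3 were intermediate and 4 were not detected. The share expressed was 70.8%, next to 59.9% for all protein-coding genes, and with a floor of 10 counts 12 were expressed. PRRX1, a homeobox factor that defines the state, and MEOX2 had 0 counts in each library, and RUNX2 had 1, 2 and 0. TWIST1, a basic helix-loop-helix factor of mesenchyme, had 313, 326 and 369 CPM. The intermediate filament VIM had 204 ± 7.92 CPM and the matrix protein FN1 had 484 ± 56.2 CPM. Among collagens, COL3A1 had 282 ± 12.8 CPM while COL1A2, a chain of type I collagen, had 3.52 ± 0.527 CPM. The Notch receptors NOTCH2 and NOTCH3 had 178 ± 23.6 CPM and 109 ± 9.56 CPM. YAP1 and WWTR1, the coactivators of the Hippo pathway, had 12.4, 10.4 and 6.27 CPM and 9.97, 10.6 and 5.02 CPM. The list as a whole summed to 1926, 1869 and 1795 CPM.

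Of 16 genes of neural crest, Schwann cells and melanocytes, 3 were expressed, SOX9 and MITF among them, 6 were intermediate and 7 were not detected. Without library 3, whose floor is the highest, 8 passed. SOX10, which defines Schwann and melanocyte lineages, had 6, 7 and 3 counts, and FOXD3 and PAX3 of early crest had 0 in each library. SOX9 had 14.5, 14.1 and 12.5 CPM and MITF, the melanocyte factor, had 9.84, 5.94 and 9.41 CPM. The 16 genes together gave 33.6, 30.2 and 31.4 CPM.

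Genes that mark cells outside the lineage gave little signal. Of 12 genes of central nervous system glia, 1 was expressed, SLC1A2, a glutamate transporter, with 16.6, 15.2 and 14.4 CPM. GFAP of astrocytes had 2, 0 and 0 counts, and AQP4, OLIG1, OLIG2 and MOG had 0. Without library 3 the count of expressed glial genes was 2. Of 20 markers of blood, vessel, epithelium, liver and muscle, 1 was expressed, the keratin KRT18 with 7.84, 8.58 and 8.78 CPM. PTPRC, CD3E, HBB, PECAM1, CDH5, KRT5, KRT14, MYOD1 and ACTC1 had 0 counts in each library. Without library 3 the count was 5. These lists summed to 17.9, 16.4 and 15.7 CPM for glia and 13.3, 12.7 and 12.5 CPM for the mixed list.

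Pluripotency genes were largely absent, with 2 of 9 expressed. NANOG, KLF4, DPPA4 and ZFP42 had 0 counts in each library, and POU5F1 had 1, 2 and 0. SOX2 was intermediate with 30, 30 and 2 counts. The expressed members were LIN28B, an inhibitor of let-7 maturation that is active in neuroblastoma, with 18.2, 17.96 and 14.4 CPM, and SALL4 with 6.38, 11.1 and 7.53 CPM.

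HOX genes, which record position along the body axis, were expressed from only 2 of the 4 clusters. Of 39 genes, 8 were expressed: HOXC4, HOXC5, HOXC6 and HOXC9, and HOXD3, HOXD4, HOXD8 and HOXD9. HOXC8 and HOXD10 were intermediate, and 29 were not detected. Each of the 21 genes of the HOXA and HOXB clusters had 0 counts in every library. HOXC4 had 19.0, 23.2 and 20.7 CPM, HOXD9 had 15.6, 17.2 and 22.6 CPM and HOXD8 had 12.8, 14.8 and 16.3 CPM. The remaining expressed genes ranged down to HOXC5, which had 7, 13 and 6 counts and whose mean of 2.14 ± 1.46 CPM was 1.29 CPM without library 3. The exons of HOXC5, HOXD3 and HOXD4 overlap other annotated genes over more than 50% of their length, so their levels are uncertain.

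**Figure D3:**
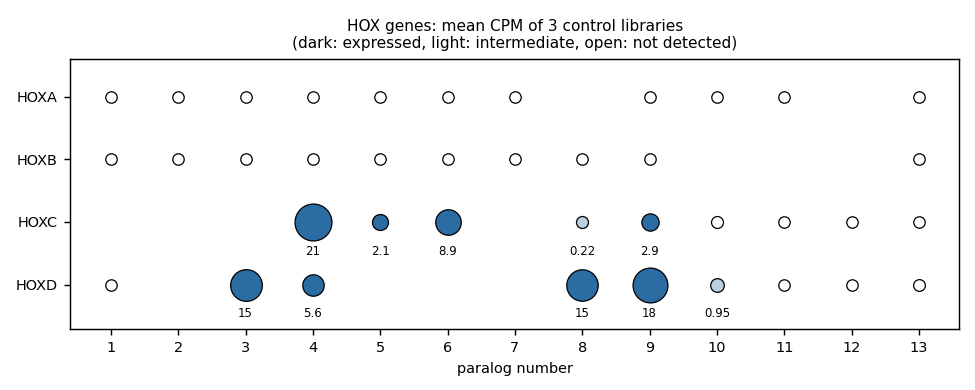
HOX genes by cluster (y axis) and paralog number (x axis); circle area grows with the mean CPM of 3 control libraries, printed under genes with signal, and fill gives the state. Filled circles are confined to HOXC (paralogs 4, 5, 6 and 9 expressed) and HOXD (3, 4, 8 and 9 expressed), and each HOXA and HOXB gene is open.

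Other transmitter identities were mostly missing, with 4 of 22 genes expressed, 4 intermediate and 14 not detected. Without library 3 the number expressed was 7. The cholinergic genes were uneven. SLC18A3, the vesicular acetylcholine carrier, had 36.2, 43.3 and 47.1 CPM, while CHAT, which makes acetylcholine, was intermediate with 12, 11 and 1 counts. SLC5A7, which takes up choline, had 3.25 ± 0.176 CPM, and ACHE, which degrades acetylcholine, had 2.15 ± 0.858 CPM. Per length, SLC18A3 at 54.0 ± 8.49 was well above SLC5A7 at 1.95 ± 0.0555. FEV, a factor known from serotonergic neurons, had 58.5, 68.4 and 82.8 CPM, while TPH2 of serotonin synthesis had 0 counts. Genes of glutamatergic and GABAergic release were near the floor, with 4, 7 and 0 counts for SLC17A7 and 1, 1 and 0 for GAD1. The midbrain dopaminergic factors LMX1A, LMX1B, NR4A2, EN1 and FOXA2 had 0 counts in each library.

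The neuronal cytoskeleton was strongly represented. Of 30 genes of this list, which also holds neuronal RNA-binding proteins, 27 were expressed, 3 were intermediate and 0 were not detected. STMN2, a microtubule regulator of growing axons, had 1452, 1319.6 and 1316 CPM and was among the 20 genes with the highest per-length level outside mitochondrial DNA. MAP1B, a large microtubule-associated protein of growing axons, had 2587, 1939 and 1438 CPM, highest in library 1 and lowest in library 3. The median of long transcripts went the same way, and the part of length in the level of MAP1B was not tested. DCX, doublecortin of migrating neurons, had 583, 537 and 437 CPM. The filament genes NEFL, NEFM and INA stood at 137 ± 2.88, 135 ± 12.9 and 176 ± 5.43 per length, and NEFH was lower at 75.9 ± 5.47 with longest and with median transcripts. PRPH, peripherin of peripheral neurons, was intermediate with 3, 6 and 0 counts, and it shares 56.2% of its exon sequence with other genes.

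TUBA1A, the neuronal alpha tubulin, had a per-length level of 1365 ± 144. The beta tubulin TUBB2B stood at 289 ± 34.3 and TUBB3, the usual neuronal marker, at 39.1 ± 3.97. MAPT, encoding tau, had 52.1, 42.0 and 41.4 CPM, and MAP2 of dendrites had 315, 282 and 252 CPM. The RNA-binding genes ELAVL3 and ELAVL4 of differentiating neurons had 336 ± 31.3 CPM and 584 ± 49.3 CPM. Which of this pair was higher per length depended on the transcript length used. RBFOX3, which encodes the mature neuronal marker NeuN, had 3, 7 and 2 counts and was intermediate, while RBFOX2 had 557 ± 35.3 CPM. UCHL1, an abundant neuronal ubiquitin hydrolase, had 255, 285 and 419 CPM and was highest in library 3.

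Synaptic genes were expressed almost without exception, with 31 of 32 expressed and SYN3 intermediate. The SNARE genes of vesicle fusion were expressed: SNAP25 had 58.5, 68.4 and 84.1 CPM, STX1A had 25.0, 27.1 and 37.6 CPM and VAMP2 had 45.6, 54.7 and 69.0 CPM. SYP, a vesicle membrane protein, had 64.2, 70.9 and 61.5 CPM. SYT1, the fast calcium sensor of release, had 105 ± 5.34 CPM, and SYT11, which binds no calcium, had 425 ± 22.0 CPM. The active zone scaffolds BSN and PCLO had 213, 177 and 138 CPM and 148, 123 and 86.0 CPM, both lowest in library 3, as long transcripts were. On the receiving side, DLG4 had 53.02 ± 2.68 CPM and SHANK1 had 88.9 ± 11.7 CPM. The adhesion genes NLGN2 and NRXN2 had 206 ± 11.9 CPM and 124 ± 6.32 CPM.

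Of 40 genes for transmitter receptors, 24 were expressed, 3 were intermediate and 13 were not detected, a share of 60.0% next to 59.9% for all protein-coding genes. The ganglionic nicotinic receptor was present, with 138, 133 and 137 CPM for CHRNA3 and 44.7, 42.0 and 43.9 CPM for CHRNB4. CHRNB2, a beta subunit of many neuronal receptors, had 246, 215 and 183 CPM. OPRM1, the mu opioid receptor, had 231, 232 and 152 CPM, with library 3 the lowest, and OPRD1, the delta receptor, had 64.6, 66.0 and 43.3 CPM. Per length, OPRM1 at 243 ± 50.5 was above OPRD1 at 19.1 ± 3.88. CHRM2, a muscarinic receptor, had 66.9 ± 6.83 CPM, and ADRA2C, a presynaptic noradrenaline receptor, had 21.5 ± 2.05 CPM. DRD2 had 12.9, 13.1 and 13.8 CPM and DRD1 had 0 counts in each library. GRIN1, the obligate subunit of NMDA receptors, had 45.1 ± 4.14 CPM, while its partners GRIN2A and GRIN2B were not detected, GRIN2B with 0 counts in each library. The GABA receptor subunit GABRB2 had 0 counts in each library.

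Of 32 voltage-gated channel genes, 18 were expressed, 5 were intermediate and 9 were not detected, a share of 56.25% next to 59.9% for all protein-coding genes. KCNH2, which encodes the ERG potassium channel, had 288, 305 and 324 CPM. The sodium channel SCN9A of peripheral neurons had 90.9, 82.9 and 62.7 CPM, SCN2A had 54.1 ± 5.72 CPM and SCN3A had 46.7 ± 6.17 CPM, whereas SCN10A of sensory neurons had 0 counts. CACNA1B, the N-type calcium channel, had 78.7, 72.3 and 62.1 CPM. The P/Q-type gene CACNA1A had 1, 1 and 0 counts and CACNA1H of the T type had 0. HCN3, a channel opened by hyperpolarization, had 33.5 ± 3.86 CPM.

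Of 32 growth factor and receptor genes, 25 were expressed, 3 were intermediate and 4 were not detected. ALK, a receptor kinase mutated in neuroblastoma, had 186, 169.9 and 143 CPM, and RET, the receptor for GDNF family ligands, had 146, 149 and 104 CPM. The ALK ligand ALKAL2 was intermediate with 7, 3 and 0 counts. NTRK2, the BDNF receptor, had 5.45, 5.81 and 2.51 CPM, a per-length level of 1.63 ± 0.624. The neurotrophins BDNF and NTF3 were at or near 0, with 3, 2 and 0 counts for BDNF and 0, 0 and 1 for NTF3. MDK and PTN, a pair of heparin-binding growth factors, had 257, 312 and 409 CPM and 75.4, 71.6 and 90.4 CPM. IGF1R had 147 ± 37.5 CPM, EGFR had 81.8 ± 16.3 CPM and PDGFRB had 113 ± 1.70 CPM. IGF2 was intermediate with 23, 10 and 0 counts and is uncertain, since most of its exon sequence overlaps other genes.

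The common isoforms of glycolysis were expressed, and some forms of muscle and germ cells, such as ENO3 and LDHC, were low or not detected. PFKM, the muscle form of phosphofructokinase, was not among these. Of 33 genes, 22 were expressed, 2 were intermediate and 9 were not detected. GAPDH had 1102, 1086 and 1122 CPM, with a per-length level of 1818 ± 68.9. HK1, a hexokinase, at 122 ± 10.6 per length was above HK2 at 52.9 ± 1.62. Enolase was mainly ENO1 at 1207 ± 54.8, followed by the neuronal form ENO2 at 167 ± 19.1 and the muscle form ENO3 at 20.9 ± 6.15. LDHA at 307 ± 27.5 was above LDHB at 35.4 ± 0.966, and the testis form LDHC had 1, 0 and 0 counts. Each of these orders held with median transcript lengths as well. PFKM and PFKP were close, at 120.2 ± 13.7 and 145 ± 10.4, and their order depended on the length used.

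SLC2A1, the common glucose carrier GLUT1, had 60.0, 62.2 and 70.3 CPM. SLC2A3, the neuronal carrier GLUT3, and SLC2A2 of liver had 0 counts in each library. SLC2A3 has a close paralog, so its count is uncertain. ALDOA, the main aldolase of most cells, had 10.6, 13.6 and 11.9 CPM, but 53.5% of its exon sequence overlaps other genes and its level is uncertain. PKM, a pyruvate kinase gene whose transcript forms were not told apart here, had 819 ± 33.1 CPM. SLC16A1, which carries lactate and pyruvate, had 129, 118 and 108 CPM, and SLC16A3, the export form, had 5.85, 3.96 and 3.14 CPM.

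**Figure D4:**
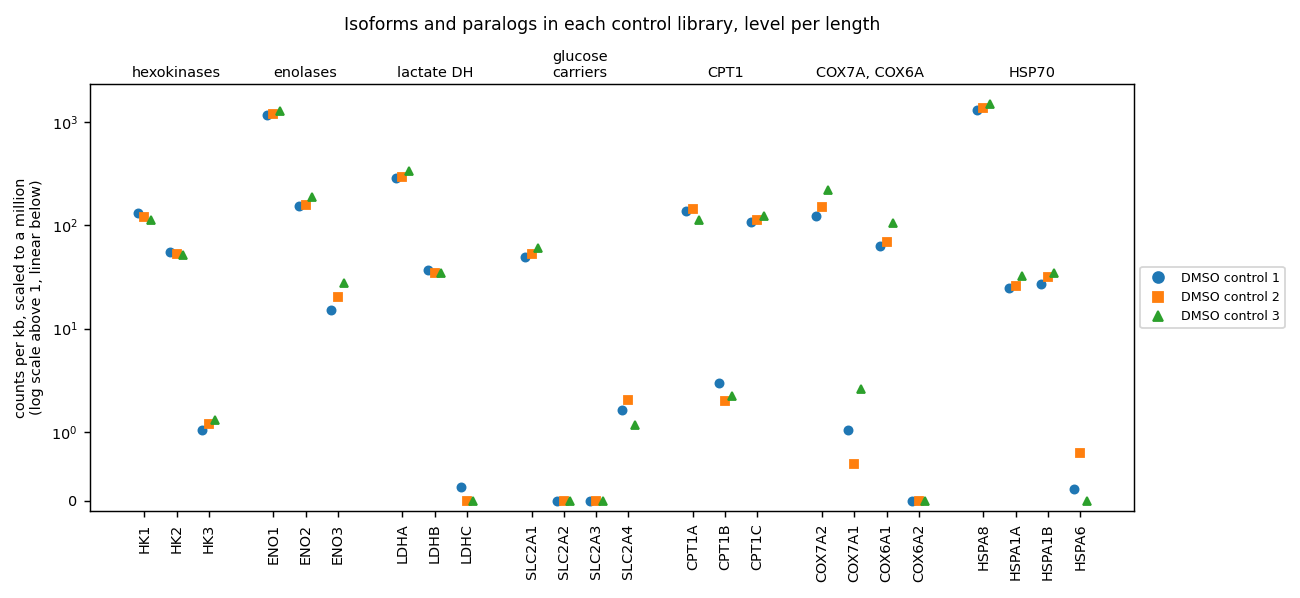
Per-length level (y axis, counts per kb of the longest transcript scaled to a sum of 1000000, log scale above 1 and linear below) of isoforms and paralogs (x axis) in control libraries 1, 2 and 3. ENO1, LDHA, HK1, HSPA8 and SLC2A1 lead their groups in every library, and SLC2A2, SLC2A3 and COX6A2 lie at 0.

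Genes of mitochondrial fuel use were expressed in 24 of 28 cases, with 1 intermediate and 3 not detected. CS and IDH2 of the citric acid cycle had 207, 198 and 207 CPM and 157 ± 7.15 CPM. PDHA1, a subunit of pyruvate dehydrogenase, had 41.6, 49.6 and 64.6 CPM. CPT1A, which acts in fatty acid import, had 222 ± 31.4 CPM, and its brain paralog CPT1C had 109 ± 5.08 CPM. The muscle form CPT1B was intermediate. OXCT1, which uses ketone bodies, had 53.02 ± 5.44 CPM. PPARGC1A, a coactivator of mitochondrial biogenesis, had 1, 0 and 0 counts, and its relative PPARGC1B had 5.72, 5.68 and 2.51 CPM. PDK4, a fasting-induced kinase, had 2.79, 1.45 and 5.65 CPM, and its mean of 3.30 ± 2.14 CPM was 2.07 CPM without library 3.

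Of 17 tissue isoforms of mitochondrial proteins, 9 were expressed, 2 were intermediate and 6 were not detected. The share expressed was 52.9%, next to 59.9% for all protein-coding genes. COX6A1 and COX7A2, the forms of most tissues, stood at 79.5 ± 23.3 and 165 ± 50.7 per length. Their heart and muscle counterparts COX6A2 and COX7A1 were not detected, COX7A1 with 2, 1 and 1 counts. SLC25A5, an adenine nucleotide carrier of dividing cells, was at 335 ± 30.5 and the muscle form SLC25A4 at 24.2 ± 5.44. SLC25A6 had 0 counts, but it has an identical copy in the annotation and is uncertain. UCP1 of brown fat had 2, 0 and 0 counts and UCP2 had 21.4 ± 2.93 CPM. Each of the 13 protein genes of mitochondrial DNA was expressed, with 15523, 13321 and 11221 CPM for MT-CO1. The 13 genes summed to 60128, 53109 and 42579 CPM, highest in library 1 and lowest in library 3.

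Amino acid, one-carbon and polyamine genes were expressed in 23 of 26 cases, with 2 intermediate and 1 not detected. The serine route was complete, with 106, 104 and 124 CPM for PHGDH, 61.4, 68.4 and 67.8 CPM for PSAT1 and 41.1, 45.3 and 43.3 CPM for PSPH. MTHFD2, the mitochondrial one-carbon enzyme of dividing cells, had 102 ± 2.96 CPM. The glutaminase GLS2 was intermediate. ASS1, which makes argininosuccinate, was not detected, with 2, 1 and 0 counts. ODC1, the first enzyme of polyamine synthesis and a target of MYC proteins, had 166, 198 and 215 CPM. SLC7A11, the cystine carrier, had 9.97, 6.34 and 8.16 CPM.

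Lipid and sterol synthesis was expressed in 19 of 20 genes. FASN, fatty acid synthase, had 868, 810.2 and 749.8 CPM, and ACLY, which supplies its acetyl-CoA, had 358, 373 and 362 CPM. SCD, which inserts a double bond, had 504, 451 and 361 CPM. APOE had 12.2 ± 2.60 CPM. LPL, a lipase of vessels and fat, was not detected, with 1, 1 and 0 counts.

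Antioxidant genes and targets of the factor NRF2 were present at rest, with 30 of 34 listed genes expressed, 3 intermediate and 1 not detected. SOD2 was not analysed here. NFE2L2, the gene of NRF2, had 44.7, 49.0 and 42.0 CPM, and its inhibitor KEAP1 had 73.8, 68.0 and 75.9 CPM. Among its classic targets, NQO1 had 20.2, 22.0 and 24.5 CPM, GCLM had 25.8, 27.2 and 25.7 CPM and TXNRD1 had 252, 239.9 and 212 CPM. HMOX1, the inducible heme oxygenase, had 5.45, 4.62 and 7.53 CPM, and HMOX2, the constitutive form, had 24.7, 22.2 and 26.4 CPM. Per length, HMOX2 at 35.1 ± 3.47 was above HMOX1 at 9.97 ± 2.75, also with median transcripts. All 6 peroxiredoxins were expressed, from PRDX4 at 80.0 ± 11.5 to PRDX5 at 336 ± 72.2 per length of the longest transcript. Selenium-dependent GPX1 and GPX4 had 77.7 ± 18.3 CPM and 75.7 ± 17.0 CPM, and the gut form GPX2 was intermediate. SRXN1 was intermediate with 12, 11 and 2 counts, but 85.0% of its exon sequence is shared and its count is uncertain.

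Of 36 genes of drug metabolism and export, 16 were expressed, 5 were intermediate and 15 were not detected. GSTT1 was not analysed here. AHR, the receptor for aromatic pollutants, had 1, 0 and 0 counts, although its partner ARNT had 107, 111 and 87.8 CPM. Its target CYP1A1 had 3, 3 and 0 counts. CYP1A2, CYP2B6, CYP2E1 and CYP3A4 of liver had 0 counts in each library, and CYP3A5 had 6.78, 7.13 and 7.53 CPM. GSTP1, the glutathione transferase of many tumours, had 197, 208 and 275 CPM, while GSTA1 had 0 and GSTM1 had 0, 1 and 0. Of the efflux pumps, ABCB1 had 114, 101 and 104 CPM, ABCC1 had 173, 171 and 149 CPM and ABCG2 had 0 counts.

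Chaperone genes were widely expressed, with 20 of 23 listed genes expressed, 2 intermediate and 1 not detected. HSP90AA1 and HSP90AB1, the cytosolic HSP90 forms, had 1786 ± 143 CPM and 2035 ± 82.8 CPM, and their per-length order depended on the transcript used. The constitutive HSPA8 stood at 1389.6 ± 101 per length, and the stress-inducible copies HSPA1A and HSPA1B at 27.5 ± 3.92 and 31.2 ± 3.77. The latter pair is nearly identical, so the split between them is uncertain. HSPA6, a strictly inducible form, was intermediate with 1, 4 and 0 counts. HSPB1 had 62.5, 76.3 and 96.6 CPM, CRYAB had 3.06, 2.24 and 5.02 CPM and HSPB2 had 0. HSF1, the factor of the heat shock response, had 65.9 ± 3.39 CPM, and DNAJB1, its target, had 81.0 ± 6.70 CPM.

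The unfolded protein and integrated stress responses were expressed in 23 of 24 genes. HSP90B1 and HSPA5, chaperones of the endoplasmic reticulum, had 579 ± 6.56 CPM and 299 ± 11.8 CPM. The eIF2α kinases were all detected, with 363 ± 7.25 CPM for the heme-controlled EIF2AK1, 213 ± 33.4 CPM for EIF2AK2, 23.6 ± 1.95 CPM for EIF2AK3 and 91.5 ± 6.48 CPM for EIF2AK4. Per length, EIF2AK1 at 251 ± 8.99 was the highest of them and EIF2AK3 at 15.7 ± 0.980 the lowest, with either transcript length. ATF4, their common effector, had 63.5, 83.6 and 118 CPM and was highest in library 3. The stress-induced genes DDIT3, CHAC1 and ATF3 were low, with 2.13, 2.90 and 3.14 CPM for DDIT3, 4.12, 5.81 and 3.76 CPM for CHAC1 and 3.32, 4.36 and 5.02 CPM for ATF3. TRIB3 had 17.7, 18.9 and 22.0 CPM, and ERN2, the gut form of a stress sensor, was not detected.

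Heme and iron genes numbered 24 expressed of 35, with 2 intermediate and 9 not detected, metallothioneins included. Each of the 8 housekeeping enzymes of heme synthesis was expressed: ALAS1 had 23.9, 26.3 and 31.4 CPM and FECH, which inserts the iron, had 47.7, 48.5 and 52.1 CPM. ALAS2, the erythroid first enzyme, had 0, 1 and 1 counts. BLVRA, a biliverdin reductase, had 32.3, 32.7 and 38.9 CPM. BLVRB, the other reductase, had 2.39, 3.17 and 6.90 CPM, and its mean of 4.15 ± 2.41 CPM was 2.71 CPM without library 3. FTL, the ferritin light chain, had 348, 350.1 and 472 CPM. FTH1 had 190.2, 201 and 271 CPM, but 62.4% of its exon sequence is shared with other genes. TFRC, the transferrin receptor, had 230, 225 and 201 CPM, and SLC40A1, the iron exporter, had 10.2, 8.45 and 5.65 CPM.

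Metallothioneins were near the floor. MT2A had 2.26, 2.11 and 6.27 CPM, and its mean of 3.55 ± 2.36 CPM was 2.13 CPM without library 3. MT1X had 0.798, 1.72 and 2.51 CPM, while MT1A, MT1H, MT1M and the neuronal form MT3 had 0 counts in each library. MTF1, the zinc-sensing factor that drives them, had 64.1, 62.1 and 47.1 CPM, and SLC30A1, a zinc exporter, had 78.0, 67.1 and 54.6 CPM.

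Hypoxia genes were expressed in 14 of 16 cases. HIF1A had 252, 257 and 207 CPM and EPAS1, which encodes HIF-2α and marks sympathoadrenal cells, had 94.7, 99.4 and 91.6 CPM. The hydroxylases EGLN1 and EGLN3 had 20.8 ± 4.46 CPM and 46.3 ± 4.37 CPM. CA9, a target of low oxygen, was not detected, with 2, 3 and 0 counts. VEGFA had 54.9, 64.3 and 74.7 CPM.

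Of 35 genes of cell death and arrest, 26 were expressed, 5 were intermediate and 4 were not detected. CDKN1A, a cell cycle inhibitor, had 83.6, 89.1 and 100.4 CPM. MDM2, a ubiquitin ligase, had 174, 161 and 112 CPM. Among guardians of the mitochondrial membrane, BCL2 had 212, 184 and 162 CPM and MCL1 had 298, 298 and 272 CPM. Per length, MCL1 stood at 227 ± 7.89, BCL2 at 76.7 ± 8.18 and BCL2L1 at 35.4 ± 5.27. CASP8, the initiator of death receptor signalling that is often silenced in neuroblastoma, had 3.06, 3.17 and 4.39 CPM, and CASP10 had 1, 1 and 0 counts. Of the TRAIL receptors, TNFRSF10B had 130, 134 and 139 CPM, TNFRSF10A was intermediate, and the decoys TNFRSF10C and TNFRSF10D had 0 counts in each library. BIRC5, survivin, had 152 ± 7.36 CPM.

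Of 32 genes of innate immunity and antigen presentation, 14 were expressed, 9 were intermediate and 9 were not detected. Without library 3, whose floor is the highest, 21 passed, and 20 passed with a floor of 1 count. IL6, CXCL8, TNF, IL1B, IFNB1, NLRP3, CASP1 and HLA-DRA had 0 counts in each library. The sensors of nucleic acids were at or near the floor, with 3, 1 and 0 counts for CGAS, 4, 11 and 3 for RIGI and 2, 5 and 0 for IFIH1. The adaptor MAVS downstream of them had 261, 227 and 156 CPM, and STING1 was intermediate with 5, 12 and 3 counts. Class I antigen presentation was uneven, with 22.5, 25.2 and 42.0 CPM for HLA-C and 10, 9 and 1 counts for HLA-B. These genes are close paralogs, so the split is uncertain. B2M, their light chain, had 58.2, 68.0 and 91.6 CPM, TAP1, the peptide carrier, had 2.92, 2.77 and 3.76 CPM, and NLRC5, the factor that drives class I genes, was intermediate.

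Proliferation genes were expressed in 24 of 25 cases. MKI67 had 941, 796 and 587 CPM and TOP2A had 757, 705 and 611 CPM. CCND1, cyclin D1, had 1436, 1344 and 1182 CPM, with a per-length level of 945 ± 68.1 against 38.7 ± 3.25 for CCND3, and CCND2 had 0 counts in each library. CDK4 and CDK6, the kinases of cyclin D, had 88.6 ± 19.5 CPM and 307 ± 64.5 CPM. TERT, the telomerase catalytic subunit, had 20.7, 21.1 and 27.0 CPM. ATRX, a chromatin remodeller lost in some neuroblastomas, had 1128, 876 and 535 CPM, lowest in library 3.

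Immediate early genes, which respond within minutes to stimulation, were expressed in 11 of 17 cases, mostly at low levels. FOS had 2.39, 2.64 and 4.39 CPM and EGR1 had 16.6, 18.7 and 11.3 CPM, while JUN had 42.5, 42.9 and 42.7 CPM and JUND had 107, 112 and 122 CPM. FOSB and EGR3 were intermediate, NPAS4, an activity-dependent neuronal factor, had 3, 1 and 1 counts, and EGR4 had 0. Per length, JUND at 189 ± 17.7 was above JUN at 37.3 ± 1.10 and FOS at 4.52 ± 1.68.

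Genes tied to neurodegeneration were expressed in 18 of 23 cases, with 3 intermediate and 2 not detected. SNCB, beta-synuclein, was intermediate with 13, 8 and 3 counts and SNCG had 0. APP had 682, 690 and 714 CPM, and its relatives APLP1 and APLP2 had 160.5 ± 23.7 CPM and 348 ± 4.94 CPM. PINK1, a kinase of mitochondrial quality control, had 11.1 ± 3.74 CPM, and LRRK2 was intermediate with 14, 8 and 1 counts. TARDBP had 223 ± 17.0 CPM and HTT had 285, 254 and 184 CPM. PRNP, the prion protein gene, had 5.32, 6.21 and 11.9 CPM. TREM2 of microglia was not detected.

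**Figure D5:**
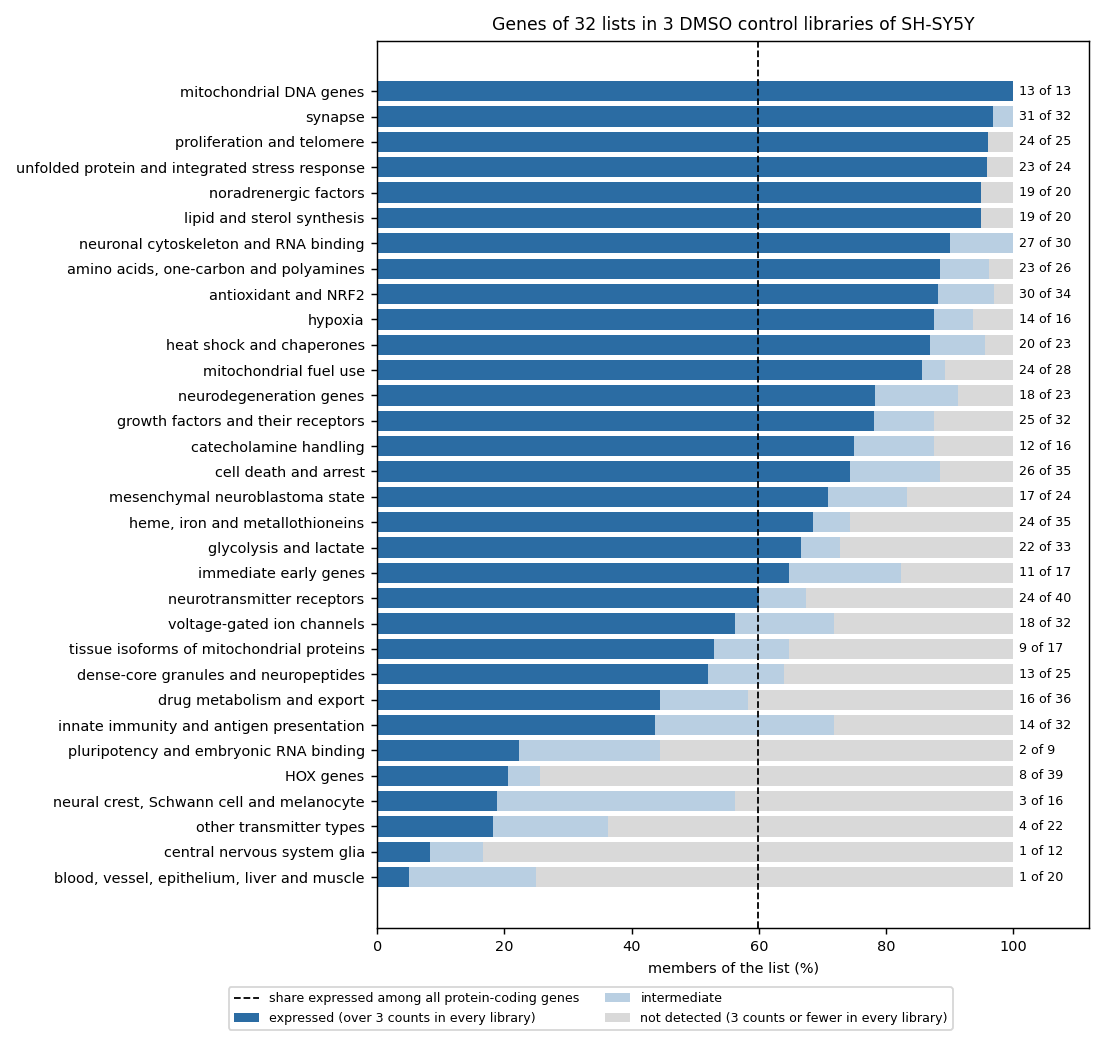
Share of each list's members (x axis, percent) that were expressed, intermediate or not detected in the 3 control libraries, for 32 lists (y axis); numbers give expressed genes of those matched, and the dashed line marks 59.9%, the share expressed among all protein-coding genes. Mitochondrial DNA, synapse and proliferation genes lie at the top, and markers of glia and of blood, vessel, epithelium, liver and muscle lie at the bottom. The lists were chosen with earlier results of these data known, so this order describes these lists only.

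Across the 32 lists, 806 of 808 genes had a row in the table, and 535 were expressed, 82 were intermediate and 189 were not detected, 126 of them with 0 counts in every library. Of the genes not detected, 7 share over 50% of their exon sequence with other genes, so their absence is uncertain. The genes with the highest per-length levels outside mitochondrial DNA were named by rule. Most of these 20 genes serve protein synthesis or the cytoskeleton, led by EEF2, a translation elongation factor, at 3781 ± 137, and ACTB, beta actin, at 3770 ± 522, which did not differ beyond their spread. RGS5, a regulator of G protein signalling known from pericytes, was the third at 2827 ± 215, within the spread of the next gene, EEF1A1, at 2731 ± 90.03, and had 5721, 5624 and 4775 CPM. MTATP6P1, a nuclear copy of mitochondrial sequence, also ranked here and is uncertain because of its close original. HSP90AB1 stood at 2349 ± 31.2 and STMN2 at 1891 ± 61.1. The ranks depend on the length used: with median transcripts HSP90AB1 stood at 792 and RGS5 at 9402.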

How the data were processed

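RNA from 12 samples of SH-SY5Y cells was sequenced after QIAzol lysis and preparation of mRNA libraries with an MGIEasy kit (per the labels' protocols), and the 3 DMSO control samples were used here. The submitters' processing notes name fastp 0.21.1, STAR 2.7.7a, featureCounts and GRCh38, without further settings. The authors deposited whole-number counts per gene, not normalized. The annotation, the strand setting and the treatment of reads in overlapping genes are not given in the sources used here. The deposited counts carry no molecular identifiers, so limits cover counting error only.

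CPM was computed with TMM factors for library size (trimmed means of log ratios; edgeR 4.0.16, R 4.3.3) over the 3 control libraries. Lengths, positions and shared exon sequence came from GENCODE 29 (GRCh38), which need not be the release the authors used; 58361 of 60710 genes had a length, and these held 99.9% of counts. Of 60710 identifiers, 60437 had a symbol. Exon overlap was counted on either strand. Promoter windows came from RefSeq (GRCh38.p14), the first start listed per gene; TH had no entry.

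A floor of 3 counts per library separated expressed, intermediate and undetected genes. No group was compared with another, and no test was made. The description and the 32 lists were chosen with earlier results of these data known. Some single genes outside the lists came from sets made by rule. These were the 20 highest per length outside mitochondrial DNA, and the 10 with the highest coefficient of variation at 50 CPM or more. Others, from gene families and noncoding RNAs, were examples chosen without a rule. Alternatives were floors of 1 and 10 counts, 1 CPM in each library, other scalings, median transcript lengths and each library left out. Some list members are counted in their lists and not reported by name here.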

Additional observations from a re-analysis of the deposited data

How the results depend on the processing

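The number of expressed genes was 13431 with the floor of 3 counts, 15417 with a floor of 1, 11250 with a floor of 10 and 14331 at 1 CPM in each library. Leaving out each library in turn gave 13441 to 17217. Of the 32 list counts, 30 stayed within 1.5 times with a floor of 1 count, 29 with a floor of 10 and all 32 at 1 CPM. With a floor of 1 count, 6 neural crest, Schwann cell and melanocyte genes and 2 genes of the blood, vessel, epithelium, liver and muscle list were expressed. With a floor of 10 counts, 5 HOX genes, 2 genes of other transmitter types and 9 of innate immunity were expressed. Leaving out each library in turn, the ranges were 3 to 8 for neural crest, Schwann cell and melanocyte genes, 1 to 2 for glia, 1 to 5 for the blood, vessel, epithelium, liver and muscle list, and 4 to 7 for other transmitter types; the upper values are those without library 3, which has the highest floor.

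Other scalings moved 0 of 535 expressed levels by over 1.5 times, and leaving out library 3 moved 4 (HOXC5, PDK4, BLVRB and MT2A). Median in place of longest transcript lengths moved 360 of 535 per-length levels by over 1.5 times, so per-length orders are firm only where both lengths gave them. Depth limits statements of absence to 0.399, 0.396 and 1.88 CPM. No paired analysis was possible because no groups were compared and each result comes from no test.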

Other observations

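Gene families outside the lists differed widely in how many members passed the floor, beside 59.9% of all protein-coding genes. Of 389 olfactory receptor genes 0 were expressed in every library and 388 were not detected, and the 94 keratin-associated protein genes and 17 type I interferon genes also had 0 expressed. Keratins gave 2 of 55, with KRT18 and KRT10 at 8.40 ± 0.495 and 7.03 ± 2.04 CPM. Chemokines gave 3 of 44: CX3CL1, an adhesive chemokine of neurons, had 19.8, 20.99 and 16.9 CPM, CXCL12 had 9.31, 14.4 and 12.5 CPM, and CCL2 had 4.25, 8.71 and 11.3 CPM. Claudins of tight junctions gave 4 of 24 and cytochromes P450 gave 10 of 55. By contrast, 451 of 509 ZNF genes, 33 of 39 kinesins and each of the 9 plexins were expressed. The axonal motor KIF1A had 560, 501 and 418 CPM and KIF21A had 873, 771 and 624 CPM. Among guidance genes, 15 of 20 semaphorins were expressed, with SEMA3C at 190, 198 and 175 CPM, and the receptor PLXNA4 had 807, 696 and 535 CPM. Clustered protocadherins, which give neurons surface identities, were expressed in 27 of 53 cases, led per length by PCDHGC3 at 62.1 ± 4.21, but their shared exons make single members uncertain. Of 26 MAGE-A, MAGE-B and MAGE-C genes, normally confined mostly to germ cells, 4 were expressed. These were MAGEA3, MAGEA6 and MAGEA12, near-identical copies whose split is uncertain, and MAGEC1 with 22.1, 22.2 and 15.7 CPM.

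Of 7511 listed lincRNA genes 312 (4.15%) were expressed, and of 5547 antisense genes 406 (7.32%), next to 22.1% of all listed genes. MALAT1, a nuclear RNA, had 4907, 3293 and 2036 CPM. NORAD, an RNA that binds Pumilio proteins, had 606, 588 and 486 CPM. HAND2-AS1, the antisense partner of HAND2, had 728, 767 and 691 CPM.

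Among 4936 genes with a mean of at least 50 CPM, the median coefficient of variation between libraries was 9.28%, and 2 genes exceeded 50%. These were UBL5, a ubiquitin-like splicing factor, with 34.4, 36.3 and 89.1 CPM, and SERF2 with 35.5, 41.5 and 85.3 CPM. In both, library 3 alone was high and libraries 1 and 2 were close together. KCNQ1OT1, a long antisense RNA, had 154, 114 and 59.0 CPM, and MT-RNR1, the small mitochondrial ribosomal RNA, had 1359, 800 and 650 CPM. The part of transcript length and depth in these differences was not tested gene by gene.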
